A study of Danio rerio with 4 samples.

Results

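The cytosolic ribosomal protein genes were followed in testes of zebrafish (Danio rerio) exposed to microcystin-LR (MCLR), a cyanobacterial toxin that inhibits the serine/threonine phosphatases PP1 and PP2A. Members were all genes whose array transcript carried a zebrafish symbol beginning with rpl or rps followed by a number, or rpsa, rplp0, rplp1, rplp2 and rplp2b, leaving out the rps6k kinases and the mitochondrial mrpl and mrps genes. The rule found 83 genes, 35 of the small (40S) and 48 of the large (60S) subunit, among 24330 genes tested. They were represented by 175 probes, and for each gene the probe with the highest mean level was used. The control group (0 µg/L) and the MCLR group (20 µg/L) each had 2 arrays of total RNA from fresh testes of 4-month-old fish after 6 weeks. The design text speaks of 2 independent experiments but the labels tie no array to one, and strain, number of fish and pooling are not given, so p-values measure only the spread between these arrays.

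Cytosolic ribosomes are built in the nucleolus from ribosomal RNA and the proteins these genes encode. Each protein is needed in about equal number per ribosome, and the genes are known for joint, high transcription in growing and dividing cells. Their mRNAs begin with a terminal oligopyrimidine tract through which mTOR controls their translation, a step that arrays do not measure. In testis, spermatogonia and growing spermatocytes need a large supply of ribosomes, and late spermatids lose their cytoplasm. In zebrafish, loss of 1 copy of several of these genes is known to predispose fish to tumours. Because the RNA came from testes and not from sorted cells, fewer cells of a type and less RNA per cell cannot be told apart.

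All 4 arrays lay on 1 slide, with MCLR in the first 2 places (1 and 2) and control in the last (3 and 4), so that place on the slide cannot be told apart from exposure. Levels are log2 processed signals minus the log2 of the 75th percentile of the same array, which was 393.3 and 310.3 on the controls and 301.0 and 397.8 on the MCLR arrays. Of 43803 zebrafish spots per array, 81.9% to 88.2% stood well above background and 0 were saturated. Testis markers were present: 12 of 12 germ cell genes and 11 of 11 Sertoli and Leydig cell genes stood well above background on all 4 arrays. So did every tested gene of the oocyte, pancreas, liver and leukocyte lists below, 9 of 10 neuron and glia genes and 7 of 8 blood genes. Detection alone therefore does not mark testis. The germ cell list summed to between 248.7 and 270.3 times the 75th percentile on the 4 arrays, and a list of 12 oocyte genes to between 4.0 and 5.1 times. The arrays differed in other tissues: 19 pancreas genes summed to 344.4 on control 2 and to 15.2 to 19.2 on the other arrays, and 10 neuron and glia genes to 36.9 on control 1 and to 4.4 to 8.7 elsewhere. Liver genes summed to 21.8 and 49.4 on the controls and 24.6 and 53.1 on the MCLR arrays, with control 1 lowest in 12 of 13. The Sertoli and Leydig cell genes summed to 90.7 and 139.4, then 118.9 and 124.5, with control 1 lowest in 4 of 11. A list of 12 leukocyte genes summed to 43.7 and 33.5 on the controls and 43.4 and 67.2 on the MCLR arrays. On average 12 of these 12 were higher in MCLR, as were 14928 of all 24330 genes. With limma 2 of the 12 passed an unadjusted p of 0.05, against 8.67% of all genes higher and 0.53% lower. Lower in MCLR were 9 of 10 neuron and glia genes, 18 of 19 pancreas genes and 7 of 8 blood genes. In these lists 2, 1 and 1 genes passed that p in either direction. The part of these cells in the results that follow was not tested.

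Ribosomal protein genes of MCLR testes differed little from those of the controls. All 83 genes had a log2 fold change between -0.17 (rpl37) and 0.33 (rps8b), and 78 lay within 0.2 of 0. With limma, 0 of the 83 passed an adjusted p of 0.05, against 0% of all genes tested, and 0 passed an unadjusted p of 0.05, against 8.67% of all genes higher and 0.53% lower in MCLR. Most of those genes were dim: among the 103 other genes with a mean level of 6 to 8, where most members lie, 0 passed an unadjusted p of 0.05. The smallest unadjusted p among the members was 0.315 and the smallest adjusted p 0.964, both for rps8b. The 95% interval of the fold change lay within a 2-fold difference in either direction for 81 members (97.6%), as it did for 55.9% of all genes and 87.4% of the other genes of level 6 to 8. The exceptions were rps23 (-0.55 to 1.01) and rps8b (-0.41 to 1.07). Only rplp0 and rps8b had a log2 fold change larger than its own standard error (median standard error 0.27), so differences of the size seen here were not detectable with 2 arrays a group.

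**Figure D1:**
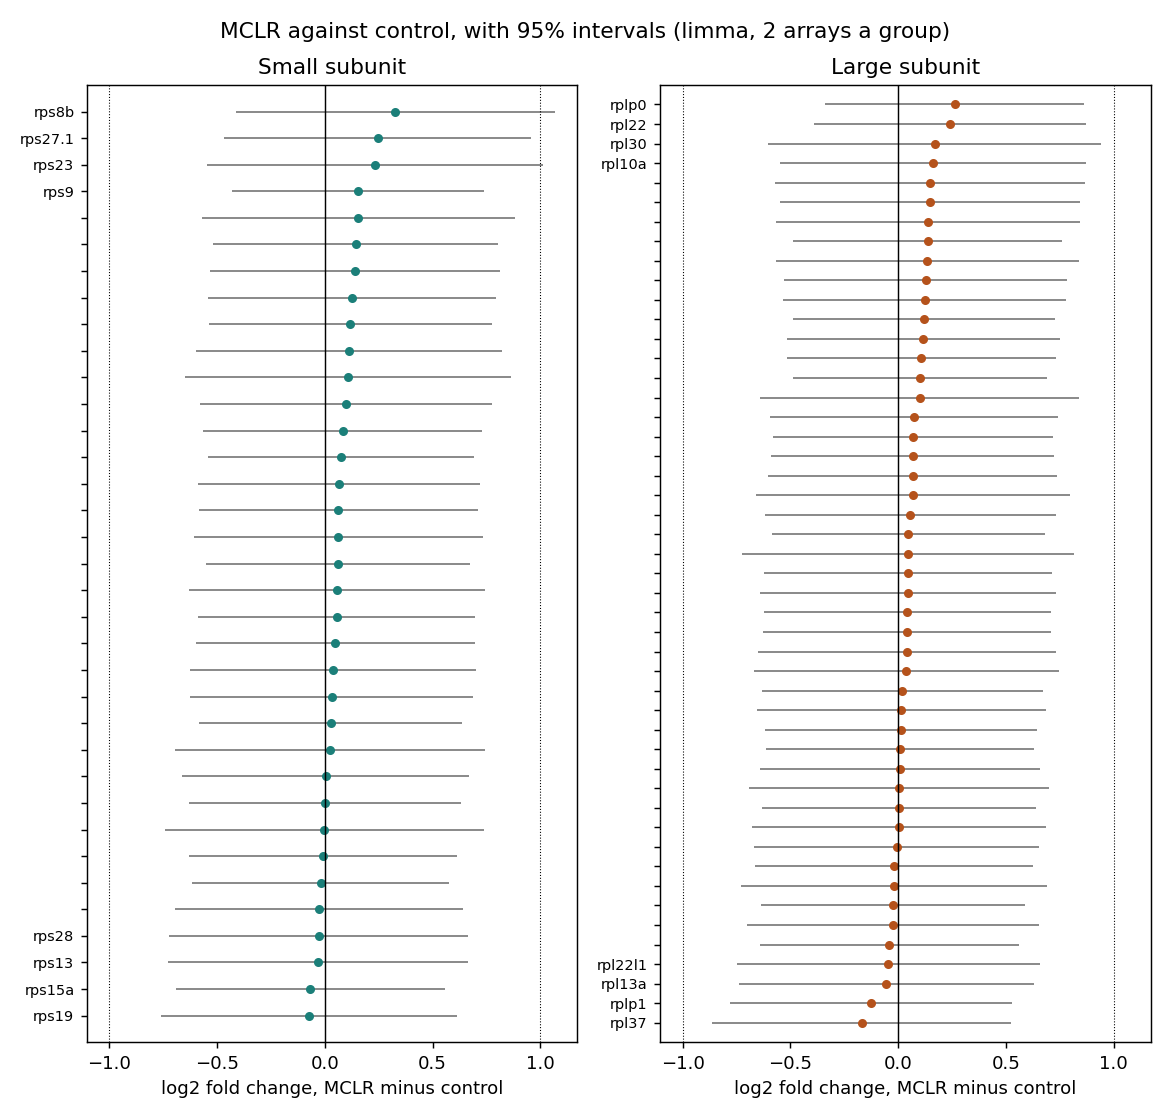
Log2 fold change, MCLR minus control, of the 35 small and 48 large subunit genes (points), with 95% intervals from limma (lines, 2 arrays a group). Names are given for the 4 highest and 4 lowest genes of each subunit, and dotted lines mark a 2-fold difference. Points lie between -0.17 and 0.33, and every interval crosses 0.

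The fold changes of the members lay close together. Their standard deviation on the log2 scale was 0.085 over the 83 members, 0.54 over all genes tested and 0.38 over the 103 other genes with a mean level of 6 to 8. A few genes far from 0 (lowest -3.49) widen the last of these, and the quartiles were nearer to each other, at 0.01 and 0.12 for the members and -0.05 and 0.11 for the genes of level 6 to 8. The median log2 fold change of the members was 0.05, with 65 higher and 18 lower. It was 0.01 over the genes of level 6 to 8 (62 higher, 41 lower) and 0.08 over all genes, most of which are dimmer. The sign of this median followed the scaling: it was -0.04, with 28 members higher and 55 lower, when each array was scaled to its median signal. That scaling shifted all genes alike, by -0.10, and took the median of all genes from 0.08 to -0.01. It also followed the control arrays, being -0.15 without control 1 (6 higher, 77 lower) and 0.26 without control 2 (81 higher, 2 lower). The standard deviation over the members was 0.085 to 0.087 under the 5 scalings. Over 14 other settings that kept 1 value per gene, 5 members (rpl22, rpl8, rplp0, rps8b and rps9) were higher in MCLR wherever they were tested. None was lower in all of them.

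Small and large subunit genes had similar fold changes. The small subunit had a median log2 fold change of 0.06 (27 higher, 8 lower; range -0.07 to 0.33) and the large subunit 0.05 (38 higher, 10 lower; range -0.17 to 0.26). Their median levels were 6.68 and 6.80 on control 1, 7.11 and 7.26 on control 2, 7.06 and 7.06 on MCLR 1, and 6.997 and 7.13 on MCLR 2. The small minus large difference of these medians was -0.12 and -0.15 on the controls and 0.00 and -0.13 on the MCLR arrays, so the groups overlapped in this balance. The levels belong to different probes and do not give the relative amounts of the subunits' mRNAs. Only their change from array to array can be read.

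With the scaling used here, the largest difference among the 4 arrays lay between the 2 controls. Control 2 was above control 1 in 81 of 83 members (97.6%; 58.5% of all genes and 93.2% of other genes of level 6 to 8), by a median of 0.42 on the log2 scale, while the MCLR arrays differed by a median of -0.0015. Control 1 was the lowest array for 76 members (91.6%; 38.7% of all genes) and control 2 the highest for 66 (79.5%; 23.7% of all genes). Both MCLR arrays fell between the controls for 64 members (77.1%; 19.2% of all genes and 55.3% of other genes of level 6 to 8). Both MCLR arrays stood above both controls for 4 members, rplp0, rpl22, rps9 and rps8b (4.82%; 25.3% of all genes but 4.85% of other genes of level 6 to 8), and below both for 0 (9.08% of all genes and 4.85% of those of level 6 to 8). The counts above and below both controls followed the scaling. They were 0 and 1 with median scaling, 11 and 4 with quantile normalization, and 10 and 4 in the deposited table. After background correction then quantile normalization they were 13 and 4. Shares over all genes were not counted under these scalings. In 77 members (92.8%) the fold change was smaller than the difference between the controls, as in 61.1% of all genes and 84.5% of other genes of level 6 to 8. All these counts rest on the brightest probe of each gene. On the 92 second or lower member probes, control 1 was lowest in 76 (82.6%) and control 2 highest in 32 (34.8%). Both MCLR arrays lay between the controls on 31 of these probes (33.7%), above both on 20 (21.7%) and below both on 1 (1.09%). The order of the arrays therefore depended on the probe.

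**Figure D2:**
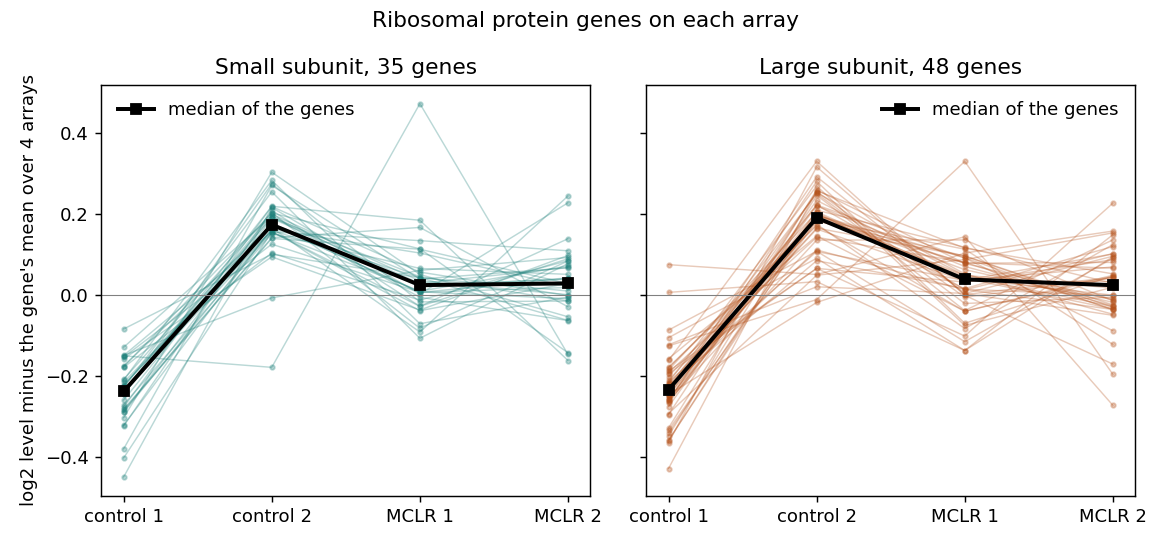
Log2 level of each ribosomal protein gene minus its own mean over the 4 arrays, for 35 small (left) and 48 large subunit genes (right). Thin lines are genes and the black line is their median. On these brightest probes both subunits are low on control 1 and high on control 2, with the MCLR arrays between.

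This order of the arrays moved with signal level and with the scaling. The 103 other genes with a mean level of 6 to 8 had a median difference of 0.36 between control 2 and control 1, with control 1 lowest in 73.8% and control 2 highest in 65.0%, and the median over all genes was 0.09. After quantile normalization, which gives all arrays the same distribution of signal and so takes away any difference that many bright probes share, the members' median difference between the controls was 0.07, with control 1 lowest in 38 and control 2 highest in 19 members. It was 0.06 in the deposited value table and after background correction followed by quantile normalization, and 0.54 with median scaling. The members' median levels on MCLR 1 and MCLR 2 were 9.45 and 9.65 with median scaling (controls 9.27 and 9.84). They were 15.41 and 15.48 with quantile normalization (controls 15.41 and 15.49), and 15.40 and 15.48 in the deposited table (controls 15.42 and 15.49). After background correction then quantile normalization they were 15.41 and 15.48 (controls 15.41 and 15.47). Of these scalings, only median scaling left the controls clearly further apart than the MCLR arrays. Of the markers above, 19 of 19 pancreas genes were highest on control 2 and 8 of 10 neuron and glia genes on control 1.

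**Figure D3:**
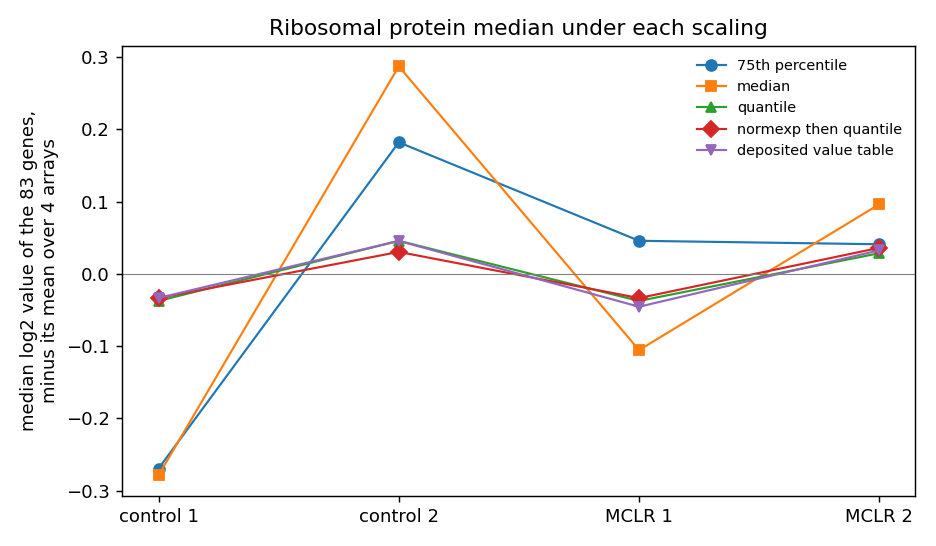
Median log2 value of the 83 genes on each array, minus its mean over the 4 arrays, under 5 ways of scaling the arrays. With the 75th percentile or the median the controls lie 0.42 to 0.54 apart (median difference per gene), and with quantile normalization, alone or after background correction, or in the deposited table by 0.06 to 0.07.

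The small subunit genes with the most positive values were rps8b, rps27.1, rps23 and rps9. Rps27.1, for the zinc finger protein Rps27, had levels of 6.70 and 7.26 without the toxin, and 7.24 and 7.21 with it. Control 1 alone stood apart, and the log2 fold change was 0.25 ± 0.28 (SE, 2 arrays in each group). A second rps27.1 probe gave 0.23. Its paralogue rps27.2 stood at 5.79 and 6.26 on the control arrays, compared with 6.22 and 5.88 on the exposed, a log2 fold change of 0.02 ± 0.29, and the related rps27l at 4.36, 4.64, 4.52 and 4.53 (0.03 ± 0.24). The groups overlapped for all 3, and the interval of each contains the values of the others.

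Rps23, a protein of the decoding centre, had levels of 4.00 and 4.67 in controls, against 4.45 and 4.68 after MCLR, a log2 fold change of 0.23 ± 0.31, and its other probe gave 0.36. Rps9 stood at 4.54 and 4.69 without the toxin, and 4.75 and 4.79 with it. Its groups did not overlap, but they lay only 0.16 ± 0.23 apart. Rps8b, a paralogue of rps8a, was the faintest member, at -3.72 and -3.75 on the control arrays, compared with -3.10 and -3.72 on the exposed. MCLR 1 alone stood apart, and the value of 0.33 ± 0.30 was 0.02 without that array. Its paralogue rps8a stood at 7.88, 8.30, 8.15 and 8.09 in the same order, with a log2 fold change of 0.03 ± 0.26.

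The small subunit genes with the most negative values were rps19, rps15a, rps28 and rps13. Rps19, whose human counterpart is the gene most often mutated in Diamond-Blackfan anaemia, had levels of 6.77 and 7.26 in controls, against 6.91 and 6.98 after MCLR, a log2 fold change of -0.07 ± 0.27. Its 3 probes gave -0.07, -0.01 and -0.14, so all had the same sign. On the brightest the MCLR arrays lay between the controls. On the dimmest they lay below both (5.61 and 5.65, then 5.58 and 5.39). Rps15a stood at 7.62 and 7.94 against 7.74 and 7.68 (-0.07 ± 0.25). The values were -0.03 for rps28 and -0.03 for rps13, again with both MCLR arrays between the controls. The second probes of rps15a, rps28 and rps13 had positive values (0.04, 0.06 and 0.04), so only rps19 had 1 sign on all its probes among these 4.

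Rps6, the 40S protein that S6 kinases phosphorylate downstream of mTOR, had levels of 6.90 and 7.28 without the toxin, and 7.10 and 7.22 with it. Its log2 fold change was 0.06 ± 0.26, and its 4 probes gave 0.03 to 0.06. Transcript levels say nothing of its phosphorylation. Rpsa, a 40S protein also known as a laminin receptor, stood at 7.85, 8.29, 8.12 and 8.09 (0.04 ± 0.27). Its 4 probes gave 0.04 to 0.24. Rps27a, which is made as a fusion with ubiquitin, stood at 6.30, 6.58, 6.46 and 6.56 (0.07 ± 0.25). On the brightest probe of each of these genes control 1 was the lowest and control 2 the highest array. Rps26 had a log2 fold change of 0.00 and its paralogue rps26l 0.11, with -0.01 on the second rps26l probe.

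In the large subunit the genes of the stalk, which draws elongation factors to the ribosome, had values of both signs. Rplp0, the base of the stalk, had levels of 6.73 and 6.96 on the control arrays, compared with 7.08 and 7.13 on the exposed. On this probe the groups did not overlap, and the log2 fold change was 0.26 ± 0.24 (limma adjusted p = 0.967). It ran from 0.15 to 0.39 over the 14 settings. On the second rplp0 probe the groups overlapped (6.30 and 6.81, then 6.80 and 6.88), and on the dimmer probes they did not. Rplp1 stood at 3.96 and 3.94 in controls, against 4.03 and 3.62 after MCLR, a log2 fold change of -0.13 ± 0.26, with MCLR 2 alone low. Rplp2 stood at 6.80, 7.36, 7.27 and 7.18 (0.15 ± 0.29), and its paralogue rplp2b at 6.50, 7.18, 6.86 and 6.91 (0.05 ± 0.31). Differences between these genes were not tested. The intervals of all 4 contain the values of the others.

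Rpl22 and its paralogue rpl22l1, which in mouse is repressed by Rpl22, differed in sign. Rpl22 had levels of 5.64 and 5.98 without the toxin, and 6.02 and 6.09 with it, with no overlap and a log2 fold change of 0.24 ± 0.25. Rpl22l1 stood at 4.82 and 5.36 on the control arrays, compared with 5.07 and 5.02 on the exposed, between the controls, a log2 fold change of -0.04 ± 0.28. Each gene had 1 probe, and the 95% interval of each (-0.39 to 0.87 and -0.75 to 0.66) contains the value of the other.

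Rpl5 and Rpl11 carry 5S ribosomal RNA into the ribosome and, when ribosome assembly fails, bind Mdm2 and so stabilise p53. Rpl5a stood at 5.51 and 5.82 in controls, against 5.75 and 5.86 after MCLR (0.14 ± 0.25). Rpl5b stood at 6.81 and 7.35 against 6.998 and 7.11 (-0.02 ± 0.28), and its other 3 probes gave 0.15 to 0.20. Rpl11 stood at 6.77 and 7.31 against 7.14 and 7.21 (0.14 ± 0.28). Of 13 tested genes of p53 and its targets, 0 passed an adjusted p of 0.05 and 0 an unadjusted p of 0.05 with limma (median log2 fold change 0.08, 8 higher and 5 lower). Over all genes 0 passed the adjusted p, and 69 of the 8207 genes with a mean level of 0 or more passed the unadjusted p. The smallest unadjusted p values in this list belonged to tp53inp1 (0.28 ± 0.24), phlda3 (0.38 ± 0.40) and casp8 (0.30 ± 0.36).

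Other large subunit genes at the ends of the range were rpl37, rpl30 and rpl10a. Rpl37 had levels of 6.63 and 7.12 without the toxin, and 6.79 and 6.62 with it, the most negative log2 fold change of the family (-0.17 ± 0.28), and another probe gave 0.03. The value was -0.08 without MCLR 2, -0.42 without control 1 and 0.08 without control 2. Rpl30 varied most over the arrays, at 7.19, 7.88, 7.73 and 7.67 (0.17 ± 0.31), and control 1 alone was low. Rpl10a had a log2 fold change of 0.16 ± 0.28, and its probes gave 0.16 to 0.31. On its second probe both MCLR arrays stood above both controls (4.81 and 5.18, then 5.30 and 5.30). Rpl10, which is added late in 60S assembly, stood at 7.03, 7.58, 7.32 and 7.37 (0.04 ± 0.28), and its other probes gave 0.14 to 0.27.

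Rpl13a, rplp0 and rps18 are in common use as reference genes for quantitative PCR. Their log2 fold changes were -0.05 ± 0.27 for rpl13a (7.15 and 7.63 in the controls, 7.29 and 7.38 in MCLR), 0.26 ± 0.24 for rplp0 and 0.14 ± 0.26 for rps18 (6.68 and 7.11, then 7.08 and 6.997). Between the 2 controls, rpl13a differed by 0.49, rps18 by 0.42 and rplp0 by 0.23. On these probes the difference between controls was larger than that between groups for rpl13a and rps18 but not for rplp0. On the second rplp0 probe it was the larger, at 0.51 beside a fold change of 0.29. On the dimmer rplp0 probes it was the smaller (-0.03 beside 0.34, and 0.02 beside 0.66). The second rpl13a probe had 0.39 between controls beside a fold change of 0.11, and the second rps18 probe 0.38 beside 0.08. The size of the difference between controls depended on the scaling. Its median over the 83 members was 0.42 here, 0.07 with quantile normalization and 0.06 in the deposited table.

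Once the median of the 83 genes on each array was subtracted, a step chosen after the values were seen, the members ran almost in parallel. The step itself takes away what the members share. No other set of genes was treated in this way, so the parallel course is not shown to be particular to these genes. The range of a member over the 4 arrays then had a median of 0.17, against 0.44 before, and was under 0.2 for 53 members. It was above 0.4 for 4, rps8b (0.79), rplp1 (0.66), rpl6 (0.52) and rpl28 (0.46). Rpl6 stood at 3.10 and 3.22 on the control arrays, compared with 3.56 and 3.03 on the exposed, and its second probe also had MCLR 1 highest and MCLR 2 lowest, with a log2 fold change of -0.03 beside 0.14 on the first. Rpl28 stood at 3.84, 3.87, 3.70 and 3.93. These 4 genes were all among the 9 members with a mean level under 5. In those 9, control 2 was above control 1 in 7, by a median of 0.14, and in the 74 brighter members it was above in all, by a median of 0.44. Rpl7l1, a relative of rpl7 with probe levels of 2.15, 2.35, 2.12 and 2.40, also departed from the common order, while rpl7 stood at 7.14, 7.62, 7.34 and 7.36. Over the unadjusted levels the smallest ranges were those of rps10 (0.18), rpl8 and rpl4 (both 0.22), and among the largest were those of rpl30 (0.69), of rplp2b and rps23 (both 0.68) and of rps8b (0.65).

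Different probes of the same gene gave slightly different fold changes, more often higher on the dimmest probe than on the brightest. Of 57 members with more than 1 probe, 40 had a higher log2 fold change on their dimmest than on their brightest probe, with medians of 0.12 and 0.06, and 50 had a smaller difference between the controls on the dimmest probe (medians of 0.26 and 0.44). The sign differed between probes in 16 members. The 4 rplp0 probes, from brightest to dimmest, gave 0.26, 0.29, 0.34 and 0.66, and the 4 rpl3 probes 0.07, 0.35, 0.36 and 0.58. The 5 rps2 probes gave 0.08, 0.26, 0.18, 0.30 and 0.23, all positive. The 4 rps6 probes, in contrast, lay between 0.03 and 0.06 although their mean levels ran from 0.95 to 7.12. Over genes that are not members the median log2 fold change was 0.39 at mean levels under -3 and 0.07 from -3 to 0, and it lay between -0.03 and 0.01 in each band above 0. Member probes, with every probe of a gene counted, had medians of 0.16 at levels from 3 to 5 (29 probes) and 0.14 from 5 to 6 (31 probes). Above 6 the median was 0.06 (101 probes). The fewer dim member probes had medians of 0.04 from 0 to 3 (9 probes), 0.22 from -3 to 0 (3 probes) and 0.37 under -3 (2 probes). The medians therefore did not rise steadily as the level fell. The other genes were counted by their brightest probe only, so these medians do not compare like with like. The brightest probes of the 9 members under level 5 had a median of 0.03, and the 92 second or lower member probes, at all levels, 0.13. All 175 member probes stood well above background on all 4 arrays. The brightest probe was used throughout, which for rpl3 and rplp0 gave the lowest of the values.

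**Figure D4:**
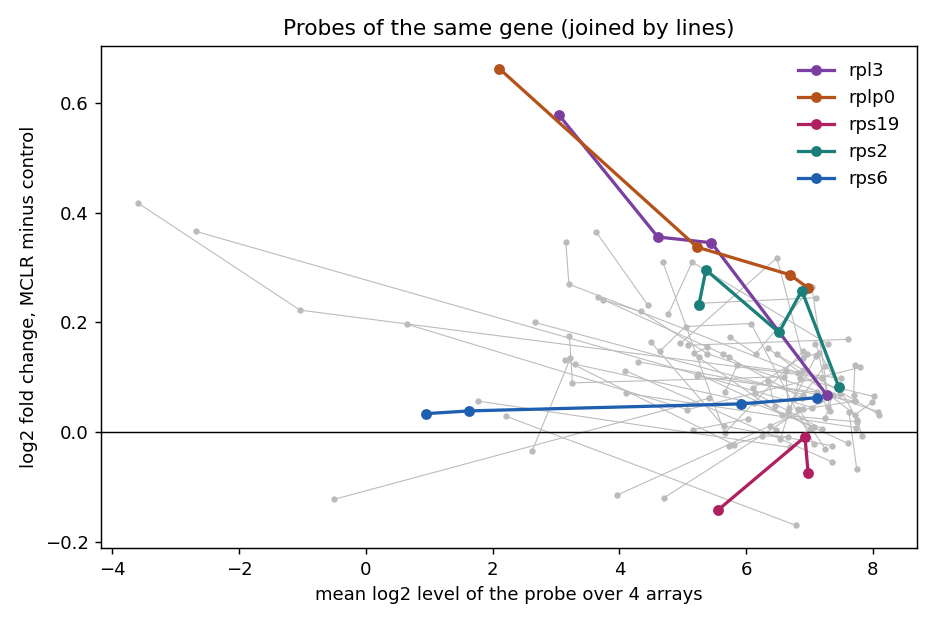
Log2 fold change, MCLR minus control, of each probe against its mean log2 level, for the 57 ribosomal protein genes with more than 1 probe. Lines join the probes of a gene. The rplp0 and rpl3 lines rise from 0.26 and 0.07 at their brightest probe to 0.66 and 0.58 at their dimmest, while the rps6 line stays between 0.03 and 0.06.

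Other genes of the translation machinery, from lists of known factors, also had 0 members past an adjusted or an unadjusted p of 0.05 with limma. Over all genes 0 passed the adjusted p. Of the 8207 genes with a mean level of 0 or more, 69 passed the unadjusted p, so 0 calls do not set these lists apart. Of 8 genes for further ribosome-bound proteins, 4 were higher and 4 lower (median 0.01). They included tpt1, of the translationally controlled tumour protein (0.20 ± 0.26), and btf3l4 (-0.14 ± 0.24). Control 1 was the lowest in 6 of these 8 genes and control 2 the highest in 7.

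Among 14 elongation factor genes the median was 0.00, with 7 higher and 7 lower. Eef1a1a and eef1a2, forms of the factor that delivers aminoacyl-tRNA, had values of -0.61 ± 0.45 and -0.63 ± 0.51. Both were high on control 1 alone, at 1.07 against -0.22 to -0.18 for eef1a1a and at -1.19 against -2.68 to -2.49 for eef1a2, the array on which the neuron and glia markers were high. The part of those cells was not tested. Eef2a.2 had 0.34 ± 0.30. Among 46 initiation factor genes the median was -0.02 (20 higher, 26 lower), with pabpc4 at 0.65 ± 0.26 (unadjusted p = 0.0522 and adjusted p = 0.553 with limma), eif4e2 at -0.47 ± 0.30 and pabpc1b, a cytoplasmic poly(A)-binding protein gene, at -0.31 ± 0.23.

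Genes that make ribosomes also lacked calls. Of 84 ribosome assembly genes 61 were higher and 23 lower in MCLR, with a median of 0.08. Other genes of level 0 to 3, the range of most of these probes, had a median of -0.02. Both MCLR arrays stood above both controls for 15 assembly genes (17.9%), beside 9.14% of all genes with a level of 0 or more and 25.3% of all genes. Those with the smallest p were nmd3, of 60S export (0.76 ± 0.37), wdr3 (0.87 ± 0.58, high on MCLR 1 alone) and noc2l (0.37 ± 0.26). Of 10 RNA polymerase I genes, which serve to transcribe ribosomal RNA, 3 were higher and 7 lower (median -0.02), among them polr1b (-0.37 ± 0.30), taf1a (0.29 ± 0.26) and the transcription factor gene ubtf (-0.28 ± 0.25). Of 17 mTOR and S6 kinase genes 9 were higher and 8 lower (median 0.03), with tsc1b at 0.85 ± 0.47, rps6ka3b at 0.53 ± 0.30 and rps6kb1b, an S6 kinase gene, at 0.37 ± 0.33.

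The mitochondrial ribosome, whose proteins are also encoded in the nucleus but serve another compartment, gave a comparison with like-named genes. Of 64 tested mrpl and mrps genes 32 were higher and 32 lower (median 0.00). With limma 0 passed an unadjusted p of 0.05, beside 69 of the 8207 genes with a mean level of 0 or more. The values with the smallest p were those of mrps27 (0.49 ± 0.28), mrpl51 (0.41 ± 0.24) and mrpl36 (-0.52 ± 0.31). Control 2 exceeded control 1 by a median of 0.24 in these genes and by 0.42 in the cytosolic ones, and control 1 was the lowest in 31 of 64. The median probe level of the mitochondrial genes was 1.23 to 1.53 on the 4 arrays, a range in which the difference between controls was also smaller over other genes (0.15 for mean levels of 0 to 3).

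**Figure D5:**
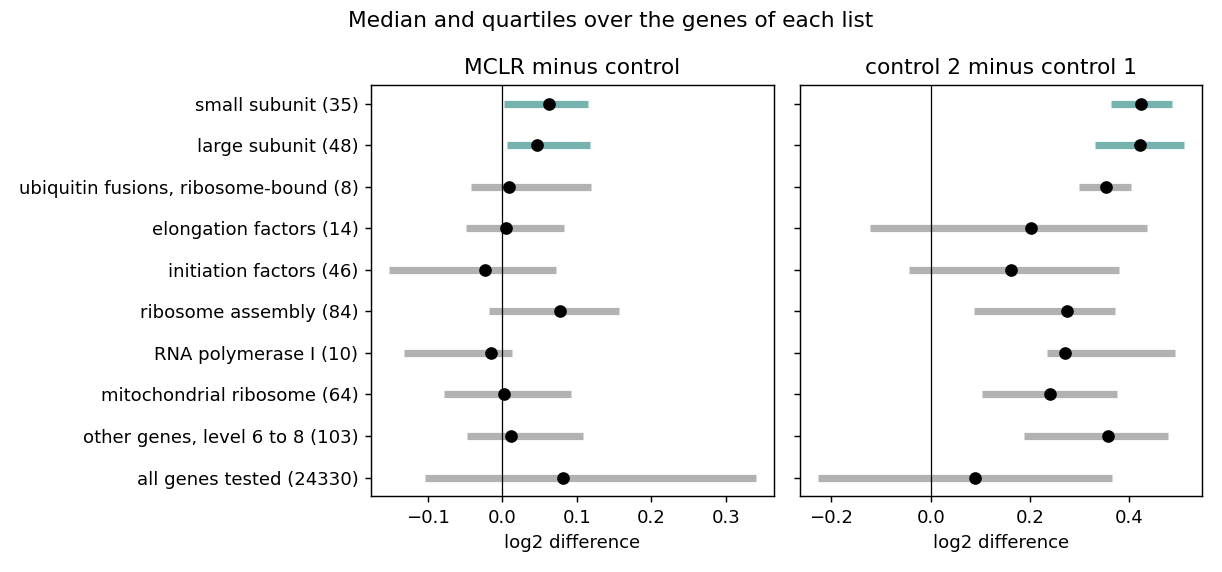
Medians (points) and quartiles (bars) of the log2 difference between MCLR and control (left) and between the 2 controls (right), over the genes of each list, with the number of genes in brackets. Both subunits lie near 0 on the left (0.06 and 0.05) and at 0.42 on the right, where other genes of level 6 to 8 have 0.36.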

How the data were processed

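Total RNA was amplified and labelled with Cy3, per the labels' protocols, and hybridised to 1-colour Agilent arrays, per the file headers. Scanner files came from Agilent Feature Extraction 11.0.1.1, per the submitters' processing notes and the file headers. The scanner software gives each spot, per the file headers, an intensity on a linear scale after background subtraction and spatial detrending. The log2 values in the deposited table have equal quartiles on all 4 arrays (median 5.90, and a correlation with that array's scanner log2 signal of 0.992 to 0.995). How they were made, and with what normalization, is not given in the sources used here, and the table served as an alternative only. Marks of 0 or 1 for detection, saturation and outliers are per the file headers.

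The log2 signal minus the log2 75th percentile over non-control spots was used. Replicate spots were averaged per probe. Outlier marks removed 60 probes, 0 of them of members. Transcript accessions without version were matched to RefSeq symbols of assembly GRCz12tu, naming 25949 of 43543 probes (59.6%) and 13369 genes. Unnamed probes entered the fit under the array's own systematic name, with the brightest probe standing for each name. Symbols fitting the rule but without a probe numbered 2. That assembly differs from the array's, so no coordinates are given. Genes were tested if well above background on both arrays of at least 1 group, using the probe with the highest mean level. Limma 3.58.1 (R 4.3.3, lmFit and eBayes, group only, two-sided) was fitted to all 24330 genes with Benjamini-Hochberg adjustment, 2 residual and 3.52 prior degrees of freedom. Python 3.11.15 with pandas 2.3.3 and matplotlib 3.10.9 served for tables and plots. Simulated arrays served to check the model code.

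Members and lists were chosen with earlier results of these data known. Named were the members with the 4 most positive and 4 most negative values per subunit, the widest and narrowest ranges, paralogue pairs, and fixed genes of known function, and up to 3 genes of smallest p in each other list. Rpl3, rps2, rpl6 and rpl28 were named after their values were seen. Some genes that the rule names are not reported here. Alternatives were quantile normalization, median scaling, normexp with an offset of 50 on median raw intensity then quantile normalization, the deposited table, other filters, other probe rules, the replicate number as a block, a prior that is trended and robust, and each array left out in turn. Views by level, by probe pairs and relative to the members' median were chosen after the values were seen.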

Additional observations from a re-analysis of the deposited data

How the results depend on the processing

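In none of the 15 alternatives did a ribosomal protein gene, or a gene of the other translation lists, pass the adjusted threshold with limma. The members' median log2 fold change ran from -0.15 (without control 1) to 0.26 (without control 2). It was negative in 1 further setting, median scaling (-0.04). The small minus large difference of medians ran from -0.03 (every probe on its own) to 0.03 (background correction with offset 50 then quantile normalization), and without each array in turn from -0.02 to 0.02. Sign changes among the members numbered 37 with median scaling, 59 without control 1, and 11 to 16 in 7 further settings. The number of members with control 1 lowest and control 2 highest was 64, and it was 10 with quantile normalization, 14 after background correction then quantile normalization, and 11 in the deposited value table. Averaging the probes of each gene gave 49, and median scaling 60. It cannot be given with an array left out. Over all genes, limma called 0 genes, but 208 higher and 6 lower with median scaling, 173 and 41 without control 1, 238 and 84 without control 2, and 2 lower each with the trended and robust prior and among genes of level 0 or more. Replicate numbers are not stated to mark an experiment. Same-numbered arrays had deviations from their group means that correlated at 0.19 over genes. With the replicate number as a block the members' smallest adjusted p was 0.885, and no member was called with the block or without it. With 1 slide in all, slide could not enter as a block. The number of arrays limits the precision.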
